A study of Arabidopsis thaliana with 14 samples.

Results

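Green Arabidopsis thaliana det2 seedlings returned to darkness were compared with det2 seedlings that had never seen light, both harvested from the dark. The 4 arrays concerned, of 14 in the series, were selected by their titles. The green det2 seedlings were 14 days old, raised in the light and given 8 h of darkness before harvest (2 arrays). The etiolated det2 seedlings were 7 days old and grown in the dark throughout (2 arrays). Light-grown det2 seedlings (7 days, 2 arrays) and wild-type Col seedlings 7 days old, in the dark or moved to light for 2 h (2 arrays each), are used as points of reference. No agent was applied to any of these groups. All 6 det2 arrays carry the same mutation, which the labels describe as brassinosteroid deficient, so nothing here contrasts mutant with wild type. Light history and age differ together between the 2 main groups and cannot be told apart, and the green dark-shifted seedlings are also older than the light-grown ones, so that darkness and age cannot be told apart there. The labels give no light intensity, day length or hour of harvest, and no source says whether replicates came from separate cultures. The genotype could not be checked on the arrays, since DET2 has no probe set named in the tables used.

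Seedlings that germinate in darkness lengthen their hypocotyl, keep the cotyledons closed, store protochlorophyllide in etioplasts and live on seed oil and protein. Light turns etioplasts into chloroplasts and starts leaf growth, after which a spell of darkness removes the supply of sugar without undoing the plastid. The gene DET2 encodes a steroid reductase of brassinosteroid synthesis, and mutants that lack it are short and partly open in the dark. The comparison describes which transcripts differ between green and never-lit seedlings when both are in the dark, with age differing too.

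Transcripts were read as signal, a scaled linear brightness per probe set, and differences are given on log2(signal + 16). Across the 17787 probe sets tested, 5203 (29.3%) differed between the groups at an adjusted p of 0.05. Of these, 2882 (16.2%) were higher in the green seedlings and 2321 (13.0%) were lower, and 2586 (14.5%) differed at least 2-fold. The median difference over all probe sets was 0.05. Replicates correlated at r = 0.963 in etiolated det2, 0.978 in green det2 after 8 h dark and 0.981 in light-grown det2. The median signal of the 6 det2 arrays lay between 212.2 and 218.6. The count fell to 3015 without replicate 1 of the green seedlings and to 2972 without replicate 2. The fit to all 14 arrays takes the spread of each probe set from the wild-type arrays too. With the 6 det2 arrays fitted alone, 7768 probe sets (43.7%) passed, 23.7% as higher and 20.0% as lower, and list counts of that fit are given where they differ widely. Folds of genes whose mean in a group was under 16 are given as "at least", because the added constant lowers them.

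**Figure D1:**
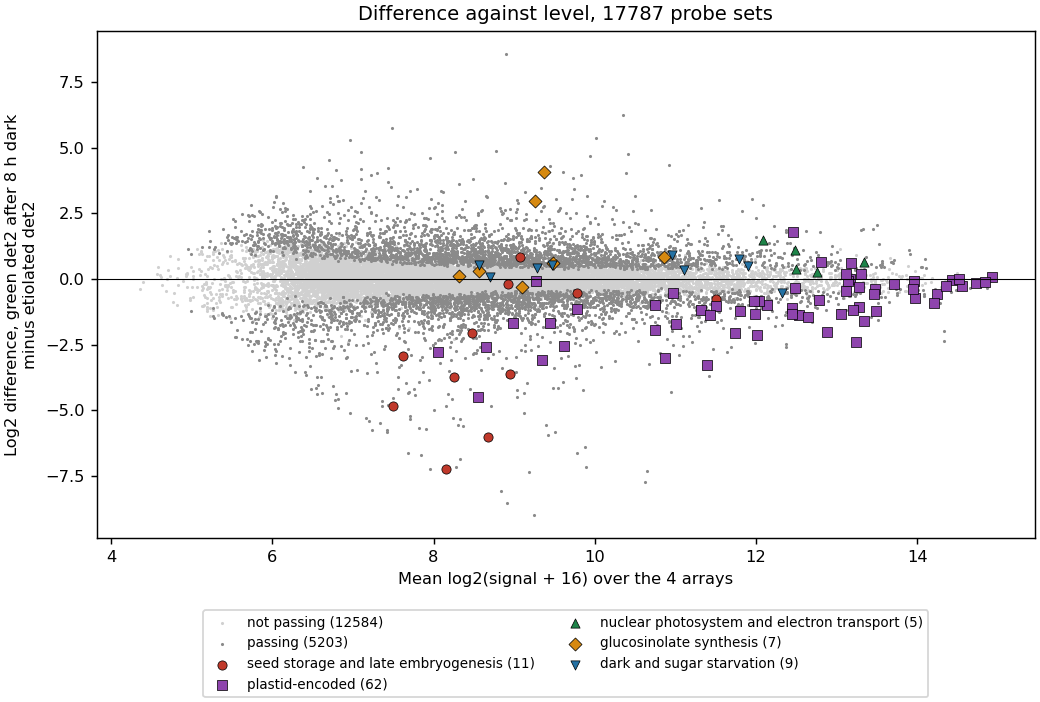
Log2 difference (green det2 after 8 h dark minus etiolated det2) against the mean log2(signal + 16) over the 4 arrays, for 17787 probe sets, with the members of 5 gene groups marked and grey tones separating the 5203 passing probe sets from the rest. Seed storage and late embryogenesis genes reach -7.24, and 2 glucosinolate genes stand at 4.08 and 2.96.

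Genes that serve the seed and its reserves were among the deepest falls. ICL (AT3G21720) encodes isocitrate lyase of the glyoxylate cycle, which turns the products of stored oil into sugar precursors. It read 13703 and 13505 in etiolated det2 and 6.4 and 17.1 in green det2 after 8 h dark. The groups were far apart, and the fall was at least 500.2-fold (log2 -8.97 ± 0.21, SE, adjusted p = 5.71e-11). Light-grown det2 lay between them at 845.7 and 792.1. ICL was also lower after 8 h dark than in light-grown det2 (log2 -4.94, adjusted p = 1.13e-07), where 6.40% of all probe sets passed as lower. The other members of the oil-use list did not move this way. SDP1, the lipase that opens oil bodies, read 726.4 and 529.7 in etiolated det2 and 954.7 and 945.1 in the green seedlings, a 1.52-fold rise that was lost without etiolated replicate 2 (adjusted p = 0.275) or either green replicate. AIM1, a beta-oxidation enzyme gene, did not pass (log2 -0.05, 95% interval -0.34 to 0.24).

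Of the 11 tested genes of seed storage and late embryogenesis, 8 fell, 1 rose and 2 did not pass, with a median of -2.95. Among all probe sets 13.0% fell and 16.2% rose. Late embryogenesis abundant (LEA) proteins protect drying seeds. LEA18 (AT2G35300) read 3445 and 3514 in etiolated det2 and 1.3 and 15.1 in the green seedlings, a fall of at least 150.7-fold. PAP85 (AT3G22640), a vicilin-like storage protein gene, read 3220 and 3312 against 37.7 and 33.1, a fall of 63.9-fold. LEA4-5 fell 28.6-fold and AtLEA4-1 fell 13.2-fold. OLEO3 (AT5G51210), whose oleosin coats oil bodies, went from 1726 and 1713 to 114.3 and 136.5, a 12.3-fold fall. The dehydrin gene LEA (AT2G21490) fell 7.71-fold. EEL, a bZIP factor that acts on seed genes, went from 694.0 and 740.1 to 152.3 and 164.7, a 4.2-fold fall. AT2G44060, also named LEA26, fell 1.68-fold.

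Of the remaining members of that list, only HVA22C was higher in the green seedlings. HVA22C, a member of a stress- and abscisic acid-responsive family, rose 1.79-fold. The dehydrin gene LTI30 stood at log2 -0.52 (95% interval -1.15 to 0.10) and LEA27 (AT2G46140) at -0.17 (-0.73 to 0.39), and neither passed. Light-grown det2 was also low, with 1.4 and 2.0 for LEA18, 55.3 and 60.1 for PAP85, and 85.2 and 92.5 for OLEO3. In dark-grown wild type, also 7 days old, the means were 754.4 for LEA18, 1524.3 for PAP85 and 1533.2 for OLEO3. HVA22C no longer passed without etiolated replicate 2 (adjusted p = 0.0979) or without either green replicate (0.0567 and 0.0914).

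**Figure D2:**
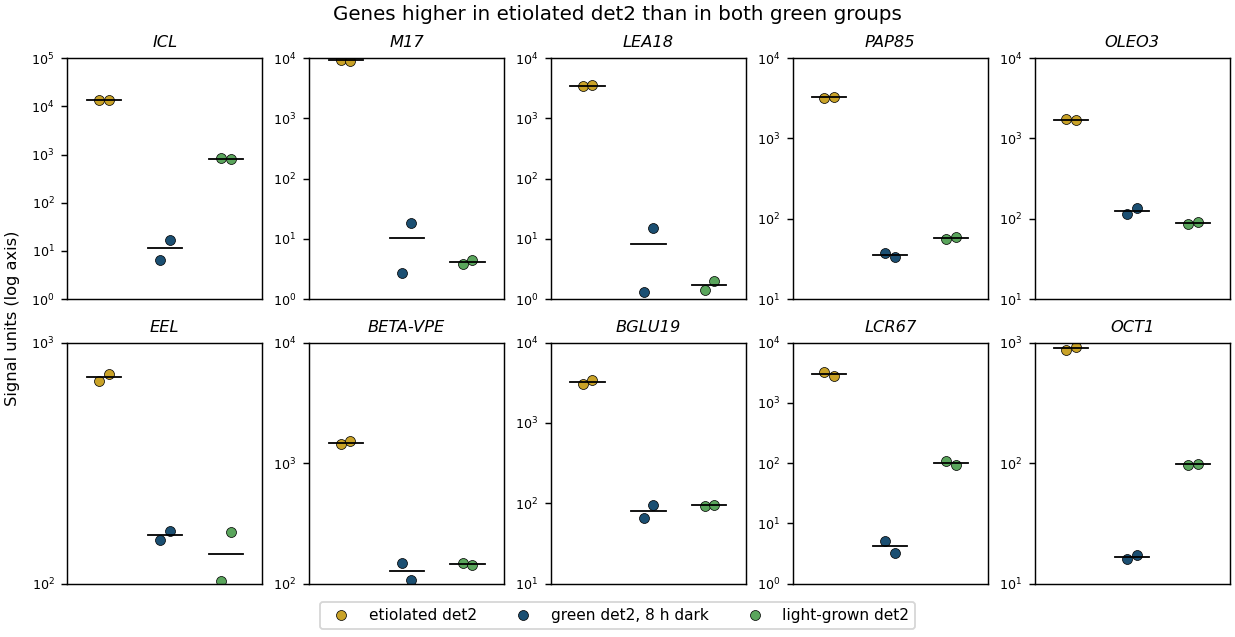
Signal of 10 genes in each array of etiolated det2, green det2 after 8 h dark and light-grown det2 (2 points per group, bar at the mean, log axis, a scale of its own in each panel). Both etiolated arrays exceed all 4 green arrays in every panel, and ICL, PAP85, LCR67 and OCT1 are lowest after 8 h dark.

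Genes outside the seed lists also fell. The lists were filled by gene name or locus, so these genes may still include seed genes. M17 (AT2G41260) went from 9287 and 9110 to 2.7 and 18.2, at least 364.4-fold, and M10 (AT2G41280) went from 368.0 and 223.4 to 8.2 on both arrays, at least 12.5-fold. BETA-VPE, a vacuolar protease that matures seed storage proteins, went from 1428 and 1514 to 147.2 and 107.7, a fall of 10.5-fold. DELTA-VPE fell 4.33-fold, while ALPHA-VPE and GAMMA-VPE did not pass. BGLU19 (AT3G21370), a beta-glucosidase gene, went from 3094 and 3407 to 66.3 and 94.6, a 34.2-fold fall. OCT1, an organic cation and carnitine transporter gene, fell 28-fold, from 869.1 and 925.9 to 16.1 and 17.2, and read 97.0 and 98.5 in light-grown det2. ARPN, a plantacyanin gene, fell 8.63-fold. M10, OCT1 and ARPN were picked after their values were seen. Among loci with no descriptive name in the tables used, AT3G02480 fell 142.6-fold, AT2G28490 at least 115.4-fold, AT2G47780 98.8-fold, AT5G44440 84.1-fold, AT2G15010 at least 56.1-fold, AT3G15670 at least 54.3-fold and AT2G21820 46.7-fold.

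Small secreted defence peptides were divided. LCR67 (AT1G75830), also called plant defensin PDF1.1, went from 3276 and 2777 to 5.2 and 3.2, a fall of at least 150.3-fold. PDF2.1 fell 28.9-fold, from 1563 and 1464 to 33.3 and 40.9. PDF1.4 fell 3.44-fold and PDF2.5 fell 1.99-fold. ECS1 (AT1G31580), which encodes a cell wall protein, moved the other way. It read 142.5 and 137.9 in etiolated det2, 3014 and 3196 in the green seedlings and 11672 and 11524 in light-grown det2, a 20-fold rise in the main comparison. PDF1.2 rose 2.1-fold, from 70.5 and 50.2 to 150.3 and 135.6, and read 2153 and 2071 in light-grown det2. Of the 10 tested genes of the list, 2 rose, 4 fell and 4 did not pass. Over all probe sets 16.2% rose and 13.0% fell. With the 6 det2 arrays alone 7 of the 10 fell, where 20.0% of all probe sets were lower. PDF1.4 was lost without etiolated replicate 1 (adjusted p = 0.0574). PDF1.2 and PDF2.5 were lost without any single array of the 4 (up to 0.177 without etiolated replicate 2, and up to 0.145 without green replicate 2).

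The steepest rise was that of AT1G23130, from 7 and 10 in etiolated det2 to 9185 and 9264 in green det2 after 8 h dark, at least 377.9-fold (log2 8.56 ± 0.38, adjusted p = 2.81e-08). Light-grown det2 read 7157 and 7340, and dark-grown wild type had a mean of 5.8. AT3G16670 rose 76.7-fold, from 104.4 and 167.8 to 11360 and 11432. AT5G55450 rose at least 28.6-fold, AT1G22690 27.5-fold, AT3G05730 20.2-fold, AT3G62950 at least 19.1-fold and AT2G25510 14.6-fold. The rule that picked these genes required the 2 groups not to overlap, so the lack of overlap is no added support. The tables used give the loci no descriptive name. For 3 more the etiolated replicates differed widely, so the size of the rise is loose. AT2G41730 rose 24.7-fold, and 50.6-fold or 12.1-fold without etiolated replicate 1 or 2. AT5G43450 rose 18.7-fold (33.6 and 10.4) and AT5G62360 rose 13.9-fold (26.1 and 7.35).

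Of the 12 largest rises of singly named probe sets, only ECS1 and BCAT4 carry a descriptive symbol. BCAT4 (AT3G19710), the aminotransferase that starts methionine chain elongation for glucosinolates, went from 153.3 and 136.3 to 2642 and 2765, a 16.9-fold rise. Genes picked after their values were seen were LPR2, a multicopper oxidase gene of the root response to low phosphate (6.6-fold), THIC of thiamine synthesis (4.52-fold) and CHX20, a cation/proton exchanger gene of guard cells (4.73-fold). BHLH101, a factor of iron deficiency responses, rose 7.63-fold from 7.8 and 45.3 to 242.5 and 312.3. Its fold was 4.75 without etiolated replicate 1 and 12.2 without replicate 2. In light-grown det2 all 4 of these genes were also above every etiolated array.

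Nuclear photosynthesis genes are given list by list, and differences between the lists were not tested. Of the 5 tested photosystem and electron transport genes, 4 rose and 1 did not pass, with a median of 0.64. Over all probe sets 16.2% rose. PSAN (AT5G64040), a photosystem I subunit, went from 2799 and 2382 to 7307 and 7105, a 2.78-fold rise. ATPC1 (AT4G04640), the gamma subunit of the chloroplast ATP synthase, rose 2.14-fold from 3923 and 3898 to 8604 and 8206. PSAE-1 rose 1.56-fold and PSBY of photosystem II 1.3-fold. PSBW did not pass (log2 0.28, 95% interval -0.04 to 0.59). In all 5 genes light-grown det2 was the highest group, with 9764 and 10053 for PSAN and 12928 and 12878 for PSBY.

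Carbon fixation genes behaved alike, 2 of 3 rising, where 16.2% of all probe sets rose. SBPASE, sedoheptulose-bisphosphatase of the Calvin cycle, read 2851 and 2820 in etiolated det2 and 4680 and 4904 in the green seedlings (1.69-fold). RCA, which encodes the activase of rubisco, rose 1.47-fold, and PRK, phosphoribulokinase, did not pass (log2 0.43, 95% interval -0.03 to 0.89). HPR (AT1G68010), hydroxypyruvate reductase of photorespiration, rose 3.45-fold from 2769 and 2880 to 9935 and 9655, next to 10657 and 10744 in light-grown det2. PSBY and RCA were lost without any single array of the 4, with adjusted p up to 0.128 and 0.113, both without green replicate 1.

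Of the 3 antenna genes none rose and 1 fell, where 16.2% of all probe sets rose and 13.0% fell. All 3 tested members encode the CP29 protein that links the light-harvesting complexes to photosystem II. LHCB4.1 stood at log2 0.24 (95% interval -0.10 to 0.58) and LHCB4.2 at 0.18 (-0.09 to 0.46), and neither passed. With the 6 det2 arrays alone both passed as higher (adjusted p = 0.00669 and 0.0242). LHCB4.3 (AT2G40100) was lower in the green seedlings, 281.5 and 322.0 against 792.8 and 604.1 in etiolated det2, a 2.23-fold fall (adjusted p = 0.000411). Light-grown det2 read 474.8 and 529.2. After 8 h dark LHCB4.3 was lower than in light-grown det2 too (log2 -0.71, adjusted p = 0.0209).

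**Figure D3:**
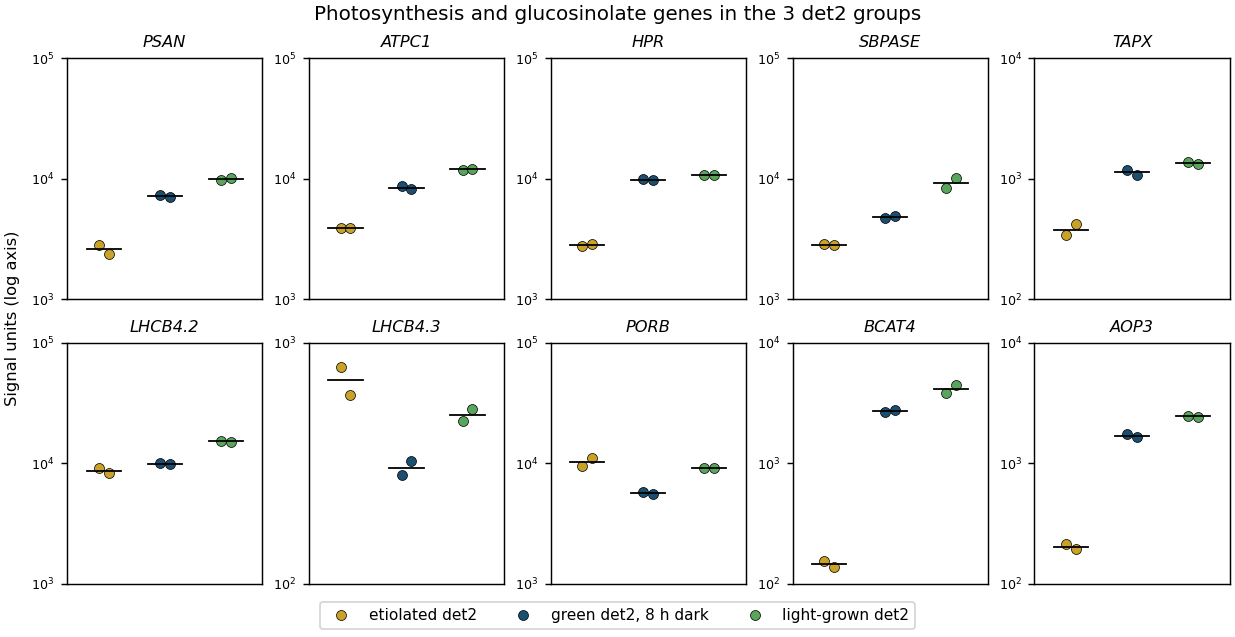
Signal of 10 photosynthesis, chlorophyll and glucosinolate genes in each array of the 3 det2 groups (2 points per group, bar at the mean, log axis, a scale of its own in each panel). PSAN, ATPC1, HPR, BCAT4 and AOP3 separate etiolated det2 from both green groups, while LHCB4.3 and PORB are lowest after 8 h dark.

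Of 12 tested genes of chlorophyll synthesis, 2 rose, 2 fell and 8 did not pass, with a median of 0.24. Over all probe sets 16.2% rose and 13.0% fell. With the 6 det2 arrays alone 5 of the 12 rose and 2 fell. PORB (AT4G27440), the light-dependent protochlorophyllide reductase that fills etioplasts, read 9452 and 10934 in etiolated det2, 5727 and 5597 in the green seedlings after 8 h dark and 9093 and 9089 in light-grown det2. It fell 1.79-fold against etiolated det2. LIL3:2, a light-harvesting-like protein gene, fell 1.46-fold. The risers were HEME1, uroporphyrinogen decarboxylase (1.45-fold), and hemb2 (AT1G44318), named for aminolevulinate dehydratase, which went from 105.9 and 72.4 to 299.0 and 293.3 (3.01-fold).

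The genes that did not pass had intervals of various widths. CHLI2 of the magnesium chelatase was at log2 0.66 (95% interval 0.05 to 1.28, adjusted p = 0.0958), HEMB1 at 0.36, HEME2 at 0.32 and HEMA2 at 0.24. The methyltransferase gene CHLM (-0.09, -0.41 to 0.24), GSA1 (0.06, -0.41 to 0.53) and LIL3:1 (-0.05, -0.40 to 0.31) had intervals within 0.53 of 0. In the carotenoid pathway LYC, lycopene beta-cyclase, rose 1.86-fold and Z-ISO stood at -0.02. LIL3:2 and HEME1 were lost without any single array of the 4, with adjusted p up to 0.201 (without etiolated replicate 1) and 0.186 (without green replicate 2).

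Genes for building and regulating the photosynthetic apparatus split. Of 28 tested, 8 rose, 3 fell and 17 did not pass, with a median of 0.26. Among all probe sets 16.2% rose and 13.0% fell. With the 6 det2 arrays alone 13 rose and 3 fell, where 23.7% and 20.0% of all probe sets did. TAPX (AT1G77490), the thylakoid ascorbate peroxidase, went from 338.8 and 416.9 to 1182 and 1080, a 2.92-fold rise. PIFI of the chloroplast NDH complex rose 2.55-fold, TRXF2, a thioredoxin that activates Calvin cycle enzymes, rose 2.3-fold, and LPA2, needed to assemble photosystem II, rose 2.09-fold. NdhL, NdhS, TROL and NTRC were the other risers. The fallers were CRR28 (2.19-fold), LPA66 (1.9-fold) and PAC (1.81-fold), of which CRR28 and LPA66 are pentatricopeptide repeat proteins that edit plastid transcripts. CRR28 depended on green replicate 2. Its fold was 1.43 without replicate 2 of the green seedlings (adjusted p = 0.264) and 3.34 without replicate 1. All 3 fallers and NdhL, NdhS and NTRC were lost without at least 1 array, with adjusted p up to 0.204 for PAC (without green replicate 1), 0.0685 for LPA66 (without green replicate 2), 0.0527 for NdhL and 0.134 for NdhS (without etiolated replicate 2) and 0.2 for NTRC (without etiolated replicate 1).

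Transcripts of the plastid's own genome fell or did not pass. Of 62 tested plastid genes in 3 lists, none passed as higher and 18 passed as lower. Among all probe sets 16.2% were higher and 13.0% lower. The ribosomal protein and RNA polymerase genes accounted for 13 of 19 members falling (median -1.38), against 4 of 33 for photosynthesis genes (median -0.54) and 1 of 10 for the NDH complex (median -0.96). The photosynthesis and NDH shares lie near that of all probe sets. rps15, a ribosomal protein gene, went from 5259 and 5307 to 638.6 and 651.7, an 8.01-fold fall. The gene rpl20 went from 8732 and 7911 to 898.8 and 797.6 (9.65-fold) and rpoB of the plastid polymerase from 684.7 and 666.0 to 90.9 and 81.5 (6.77-fold). psbN fell 8.51-fold. psaA, for a photosystem I core protein, stood at log2 1.80 without passing (adjusted p = 0.105).

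Light-grown det2 was low too, with 598.0 and 408.5 for rps15. With the 6 det2 arrays fitted alone, 19 of 19, 21 of 33 and 8 of 10 members of the 3 plastid lists fell. All probe sets together were 20.0% lower and 23.7% higher there. In that fit 0, 3 and 1 members rose, among them psaA (adjusted p = 1.05e-08). rpl20, rpoB, rpl14, petN, psbZ, psaI and ndhF were lost without any single array when all 14 arrays were fitted, with adjusted p up to 0.088, 0.113, 0.125, 0.166, 0.105, 0.105 and 0.152.

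Glucosinolates are the sulphur-rich defence compounds of this plant family. Of 7 tested genes 4 rose and 3 did not pass, with a median of 0.61, where 16.2% of all probe sets rose. Beside BCAT4, AOP3 (AT4G03050), a dioxygenase that modifies glucosinolate side chains, rose 7.81-fold from 211.9 and 194.2 to 1754 and 1634, and read 2482 and 2397 in light-grown det2. The transporter gene GTR2 rose 1.77-fold and UGT74B1, which glucosylates the core, 1.52-fold. Of the 3 genes of nitrate and sulphate assimilation, APS3, an ATP sulphurylase, rose 2.33-fold and SIR, sulphite reductase, 1.72-fold, both highest in light-grown det2 (1080 and 1074 for APS3). The nitrate transporter gene NRT2.5 did not pass. GTR2 was lost without etiolated replicate 2 or green replicate 1 (adjusted p = 0.0581 and 0.068) and UGT74B1 without any single array (up to 0.225, without etiolated replicate 2).

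**Figure D4:**
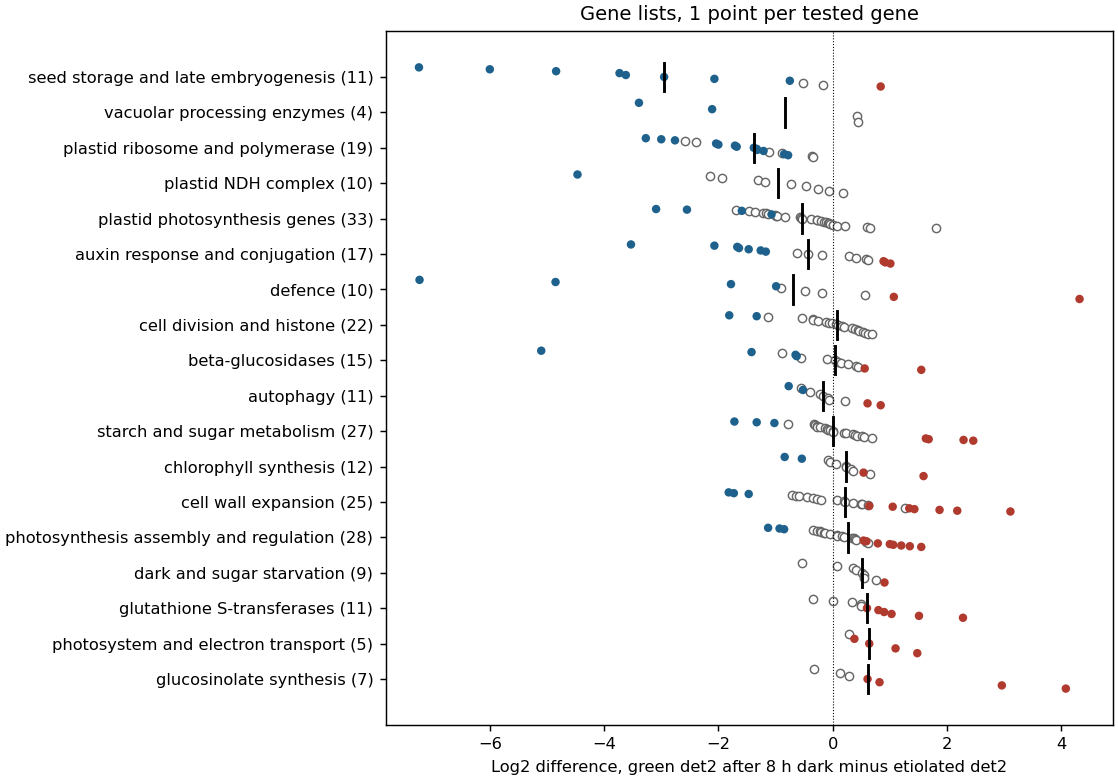
Log2 difference of every tested member of 18 gene lists, with filled points for genes that passed (red higher, blue lower in green det2 after 8 h dark), open points for the rest, and a bar at each list's median. Numbers in brackets count tested genes. The seed list has the lowest median, -2.95.

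Glutathione S-transferases, which join glutathione to reactive compounds, rose in 6 of 11 cases with none falling and a median of 0.60. Among all probe sets 16.2% rose and 13.0% fell. With the 6 det2 arrays alone 8 rose and 1 fell, where 23.7% and 20.0% of all probe sets did. GSTU20 (AT1G78370) went from 523.6 and 520.1 to 2643 and 2536 (4.84-fold), and light-grown det2 read 5175 and 4522. GSTU25 rose 2.84-fold, GSTU26 2.05-fold and GSTU28 1.87-fold. GSTU26, GSTU28, GSTL3 and GSTU16 were lost without at least 1 array, with adjusted p up to 0.057 and 0.0941 for GSTU26 and GSTU16 (without green replicate 2), 0.249 for GSTU28 (without etiolated replicate 2) and 0.078 for GSTL3 (without green replicate 2).

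Calls among genes known to be induced by darkness and sugar shortage depended on the arrays fitted. Of 9 tested, 1 rose, none fell and 8 did not pass with all 14 arrays, with a median of 0.51. With the 6 det2 arrays alone 7 rose and 1 fell, where 23.7% of all probe sets were higher. MCCA (AT1G03090), a subunit of the carboxylase of leucine breakdown, read 3180 and 3203 in etiolated det2, 4651 and 4459 in green det2 after 8 h dark and 958.2 and 913.3 in light-grown det2. The difference between the dark groups did not pass (log2 0.51, 95% interval -0.44 to 1.46), and passed with the 6 det2 arrays alone (adjusted p = 0.000126). IVD (AT3G45300), isovaleryl-CoA dehydrogenase of the same pathway, read 2022 and 1837, then 2460 and 2481, and 798.9 and 943.1 in light-grown det2. Its difference between the dark groups was 0.36 (-0.04 to 0.75), with adjusted p = 0.0101 in the 6 det2 arrays alone.

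AKINBETA1, a subunit of the energy-sensing kinase SnRK1, repeated the pattern with 2806 and 2596, 4723 and 4432, and 1144 and 1184 in light-grown det2 (log2 0.76 between the dark groups, interval 0.07 to 1.45, adjusted p = 0.0908, and 1.15e-05 in the 6 det2 arrays alone). All 3 of these genes were higher after 8 h dark than in light-grown det2. The log2 differences were 2.26 for MCCA (adjusted p = 0.00495), 1.49 for IVD (0.000238) and 1.96 for AKINBETA1 (0.00171). Of the 9 tested genes of the list, 4 passed as higher there, none as lower and 5 did not pass. In that comparison 12.4% of all probe sets passed, 5.98% as higher. MCCB, the partner subunit of MCCA, stood at -0.54 between the dark groups (-1.32 to 0.23) and was the member that fell in the 6 det2 arrays alone (adjusted p = 0.000569). PPDK, pyruvate orthophosphate dikinase, was the member that rose, 1.87-fold from 1433 and 1436 to 2696 and 2695, and it was lost without any single array (adjusted p up to 0.105, without green replicate 2).

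**Figure D5:**
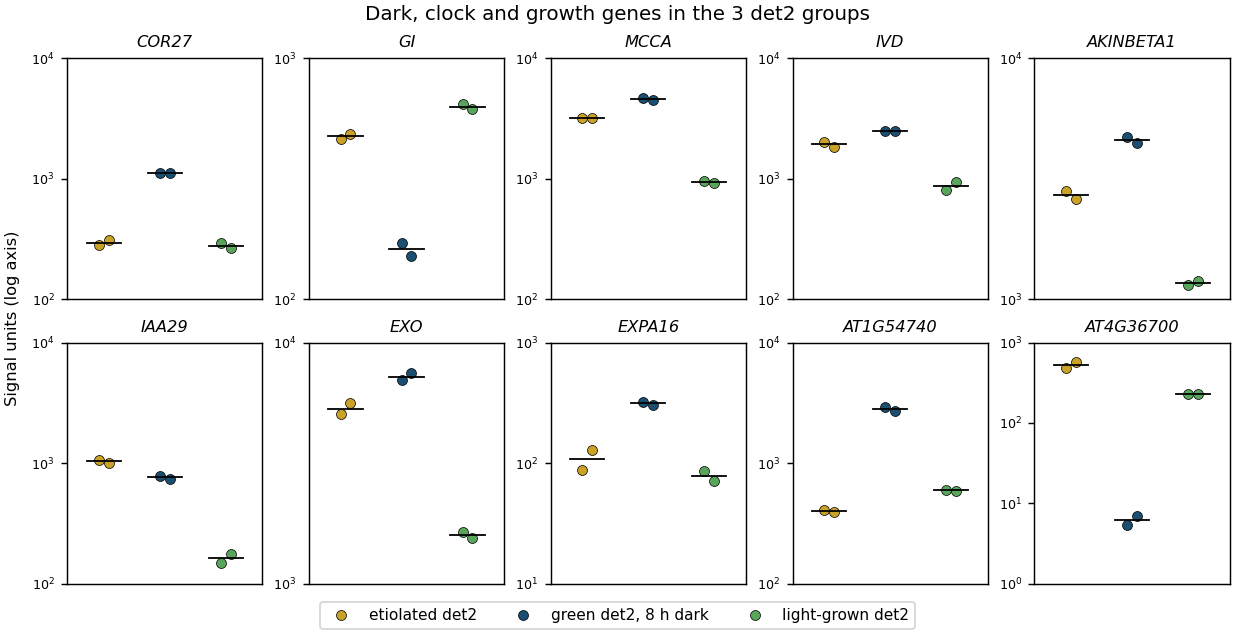
Signal of 10 dark-response, clock and growth genes in each array of the 3 det2 groups (2 points per group, bar at the mean, log axis, a scale of its own in each panel). MCCA, IVD, AKINBETA1, IAA29 and EXO are lowest in light-grown det2, whereas COR27, GI, EXPA16, AT1G54740 and AT4G36700 set apart the seedlings given 8 h dark, which are also the oldest group.

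Autophagy genes were divided, 2 of 11 rising and 2 falling, where 16.2% of all probe sets rose and 13.0% fell. With the 6 det2 arrays alone 2 rose and 4 fell. ATG8E, whose small protein coats autophagosomes, read 2355 and 2233 in etiolated det2, 3573 and 3435 in the green seedlings and 1869 and 1639 in light-grown det2, a 1.52-fold rise. ATG101 (AT5G66930) rose 1.79-fold, while ATG8G and ATG8D fell 1.71-fold and 1.44-fold. Of 6 genes of chlorophyll breakdown and senescence only SAG29, also named SWEET15, passed, as lower (2.18-fold). With the 6 det2 arrays alone 3 of the 6 rose and 2 fell. ATG8E was lost without etiolated replicate 2 or green replicate 1 (adjusted p = 0.0618 and 0.0694). ATG8G, ATG8D and SAG29 were lost without any single array (up to 0.108 without green replicate 1, 0.188 without etiolated replicate 2 and 0.136 without green replicate 2).

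Sugar transport and starch genes were also mixed, with 4 of 27 rising and 3 falling. These shares lie near those of all probe sets (16.2% higher and 13.0% lower). SWEET proteins carry sugars across membranes. SWEET2 (AT3G14770) went from 216.7 and 266.9 to 1180 and 1295, a 4.88-fold rise, and read 727.6 and 664.0 in light-grown det2. SWEET1 rose 3.08-fold, from 579.5 and 472.6 to 1631 and 1666. TMT2, which loads sugars into the vacuole, went from 1163 and 1029 to 252.6 and 407.0, a 3.29-fold fall. SWEET11 fell 2.03-fold, from 12988 and 15976 to 6851 and 7323, and SWEET3 fell 2.52-fold. The sucrose phosphate synthase gene ATSPS4F read 3.3 and 57.5 in etiolated det2 and 180.9 and 202.5 in the green seedlings (5.51-fold). Its fold was 2.82 without etiolated replicate 1 (adjusted p = 0.0757) and 10.7 without replicate 2. SWEET10, at 3.2-fold, had folds of 6.4 and 1.6 in the same 2 cases and was lost without etiolated replicate 2 (0.226) or either green replicate. SWEET3 was lost without green replicate 2 (fold 1.67, adjusted p = 0.171) and without etiolated replicate 1, and SWEET11 without etiolated replicate 2 (0.0863) or either green replicate (0.0699 and 0.05).

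Of 3 clock genes 1 rose, 1 fell and 1 did not pass, where 16.2% of all probe sets rose and 13.0% fell. COR27 (AT5G42900), a cold-regulated gene that feeds into the clock, read 279.5 and 307.2 in etiolated det2, 1105 and 1111 after 8 h dark and 289.8 and 266.9 in light-grown det2. It rose 3.64-fold (adjusted p = 0.000179). GI (AT1G22770), GIGANTEA of the evening clock, read 463.7 and 483.5, then 171.3 and 151.2, and 643.2 and 613.0 in light-grown det2. Its 2.77-fold fall was at adjusted p = 0.0493 and was lost without any single array (up to 0.179, without green replicate 2). TIC did not pass (log2 -0.63, 95% interval -1.34 to 0.08). Of the 2 light signalling genes, HYH, a bZIP factor close to HY5, rose 3.26-fold from 134.4 and 72.6 to 397.9 and 326.3, near the 329.4 and 341.9 of light-grown det2. FHL, of phytochrome A transport, stood at -0.46 (-1.05 to 0.14).

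Of 6 flavonoid genes 2 rose and 4 did not pass, where 16.2% of all probe sets rose. DFR, dihydroflavonol reductase of the anthocyanin branch, read 157.6 and 86.6 in etiolated det2, 150.9 and 152.2 after 8 h dark and 1245 and 1370 in light-grown det2. UF3GT, an anthocyanin glycosyltransferase gene also named UGT79B1, read 24.4 and 22.3, then 78.5 and 34.9, and 483.5 and 478.7. Neither passed between the dark groups (log2 0.33, interval -0.42 to 1.07, and 0.82, -0.01 to 1.64). The 2 that rose were CHIL (chalcone isomerase-like) 2.65-fold, from 70.0 and 31.1 to 181.4 and 128.2, and UGT78D2, 1.57-fold. UGT78D2 was lost without etiolated replicate 2 (adjusted p = 0.39) or either green replicate.

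Auxin genes fell more often than they rose, 7 against 3 of 17 tested, with a median of -0.43. Among all probe sets 13.0% fell and 16.2% rose. IAA20 (AT2G46990), an auxin response repressor, went from 439.9 and 608.9 to 43.3 and 19.8, an 11.6-fold fall. WAG2, a kinase of auxin transport, fell 4.21-fold, and GH3.3, which conjugates auxin to amino acids, 3.19-fold from 1879 and 1677 to 580.7 and 514.0. IAGLU, an auxin glucosyltransferase, read 1070 and 1048, then 448.2 and 475.9, and 1106 and 1146 in light-grown det2 (2.25-fold lower than in etiolated det2). LBD16, of lateral root initiation, fell 2.4-fold. The risers were IAA18 (2.01-fold), GH3.17 (1.89-fold) and the homeodomain gene HAT2 (1.86-fold).

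IAA29, picked after its values were seen, read 1054 and 1012 in etiolated det2, 786.7 and 737.7 after 8 h dark and 148.1 and 175.8 in light-grown det2, with no call between the dark groups (log2 -0.43, 95% interval -0.95 to 0.09). IAA34 (3.13-fold lower) and GH3.1 (2.77-fold lower) depended on green replicate 2. Without it their folds were 1.75 and 1.45 (adjusted p = 0.175 and 0.428), and without green replicate 1 they were 5.58 and 5.29. IAA34 was also lost without either etiolated replicate (0.0632 and 0.0625), as was GH3.1 (0.0736 and 0.191).

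Other hormone lists held 3 to 5 tested genes each, too few to set against the 29.3% of all probe sets that passed. Of the 3 brassinosteroid genes none passed. EXO, which responds to brassinosteroids, read 5048 and 5605 in etiolated det2, 6974 and 7484 after 8 h dark and 1638 and 1545 in light-grown det2 (log2 0.44 between the dark groups, interval -0.29 to 1.17). BRL1, a receptor kinase related to BRI1, stood at -0.56 (-1.16 to 0.05). Of 5 gibberellin genes the receptor gene GID1A rose 1.53-fold, and none of the 3 ethylene genes passed, EIN3 standing at 0.45 and ETP2 at -0.12. GID1A was lost without any single array (adjusted p up to 0.13, without green replicate 1).

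Cell wall expansion genes moved in both directions, 7 of 25 rising and 3 falling, where 16.2% of all probe sets rose and 13.0% fell. Expansins loosen the wall and XTH enzymes cut and rejoin its xyloglucan. EXGT-A3 (AT2G01850), also named XTH27, went from 1588 and 1583 to 6016 and 5664, a 3.66-fold rise, with 3078 and 3765 in light-grown det2. XTH26 rose at least 8.63-fold, from 6.8 and 6.3 to 154.8 and 205.6. EXPA16 rose 2.7-fold and EXPB3 2.07-fold. EXPA9 went from 1244 and 1199 to 332.3 and 336.1, a 3.53-fold fall, and EXPA8 fell 3.32-fold from 1586 and 1342 to 427.4 and 429.1. EXLA1 and the wall-sensing kinase gene THE1, picked after their values were seen, were higher in both dark groups than in light-grown det2 (EXLA1 read 782.0 and 724.2, then 1163 and 1206, and 328.8 and 352.7). EXLA1 rose 1.56-fold between the dark groups and THE1 1.65-fold.

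Some of these calls leaned on 1 array. EXPA7, at 4.52-fold, had a fold of 2.85 without etiolated replicate 1 (adjusted p = 0.208) and 7.15 without replicate 2, and was also lost without either green replicate. XTH20, at 2.53-fold, had 1.45 (0.29) and 4.42 in the same cases, and was likewise lost without either green replicate. EXLA3, 2.76-fold lower, had 1.56 without green replicate 1 (0.332) and 4.91 without replicate 2, and was also lost without either etiolated replicate. EXLA1 was lost without etiolated or green replicate 2 (0.053 and 0.0566) and THE1 without etiolated replicate 1 (0.249) or either green replicate.

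Markers of particular cell types gave no single direction. In whole seedlings, fewer cells of a type and less RNA per cell cannot be told apart. FMA (AT3G24140), the guard cell factor FAMA, went from 108.8 and 78.7 to 437.5 and 378.8, a 3.89-fold rise, while SPCH of the earlier lineage (log2 0.74, 95% interval 0.02 to 1.47, adjusted p = 0.112) and STOMAGEN (-0.43, -1.11 to 0.26) did not pass. Of the 3 root markers, the root hair expansin genes EXPA7 and EXPA18 stood at 2.18 and 1.27, with the latter not passing, and PYK10, an abundant root beta-glucosidase gene, fell 1.57-fold from 20391 and 23216 to 14224 and 13542. Of 11 trichome and epidermis genes 2 rose and 2 fell (2 and 4 with the 6 det2 arrays alone). YAB5, a leaf polarity factor, rose 3.2-fold, ATMYC1 rose 1.85-fold, WSD1 of wax ester synthesis fell at least 10-fold and SIM, a cell cycle inhibitor of trichomes, fell 3.08-fold from 3244 and 2770 to 965.4 and 958.6. ATMYC1 was lost without etiolated replicate 1 or green replicate 2 (adjusted p = 0.0693 and 0.112).

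Of 22 cell division and histone genes 2 fell and none rose, with a median near that of all probe sets. Both shares lie below those of all probe sets, of which 13.0% fell and 16.2% rose. HIS1-3, a stress-responsive linker histone, went from 7331 and 7067 to 2068 and 2026 (3.5-fold lower) and read 948.1 and 878.9 in light-grown det2. TOPII, topoisomerase II, fell 2.51-fold. Among 8 tubulin and actin genes, TUB1 fell 2.86-fold from 2498 and 2236 to 825.5 and 804.6, TUB6 fell 1.97-fold, TUA1 rose 1.78-fold and ACT11 rose 1.73-fold. TOPII was lost without etiolated replicate 2 or either green replicate (adjusted p up to 0.147), as was ACT11 (up to 0.0857).

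Of 41 UDP-glycosyltransferases 10 rose and 3 fell, a share near the 29.3% called over all probe sets. UGT72E1, which glucosylates lignin precursors, went from 596.6 and 590.7 to 1903 and 1858 (3.11-fold), and UGT74F1, which acts on salicylic acid, rose at least 2.84-fold. UGT76E2 fell 5.34-fold and UGT76E12 at least 4.6-fold. Of 15 cytochrome P450 genes 5 rose and 1 fell, with CYP71B23 up 2.57-fold and CYP71B34 down 2.23-fold. Peroxidases (1 of 5 up, 1 down) and beta-glucosidases (2 of 15 up, 4 down) had calls both ways. So did carboxypeptidase-like genes (2 of 22 up, 1 down) and trichome birefringence-like genes, which acetylate wall polymers (4 of 17 up, 3 down). With the 6 det2 arrays alone 1 peroxidase gene rose and 3 fell, and 5 carboxypeptidase-like genes rose and 2 fell. The peroxidase gene Prx37 rose 2.76-fold, and read 1883 and 1598 in light-grown det2 against 476.4 and 444.0 after 8 h dark. UGT76E12 was lost without etiolated replicate 1 (adjusted p = 0.101) or either green replicate.

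Of 12 chaperone genes 2 rose and 1 fell, a share near that over all probe sets. Fes1B, a nucleotide exchange factor, rose 2.42-fold and Fes1C 1.67-fold, and AT5G48570, the co-chaperone ROF2, fell 2.46-fold from 188.9 and 144.4 to 58.0 and 57.4. Of 15 genes of respiration and organic acids 3 rose and 2 fell, where 16.2% of all probe sets rose and 13.0% fell. IDH-V, isocitrate dehydrogenase, rose 2.01-fold and GPDHC1, a glycerol phosphate dehydrogenase, fell 2.1-fold. Fes1C was lost without green replicate 1 (adjusted p = 0.053) and AT5G48570 without etiolated replicate 1 (0.0922) or either green replicate.

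A few genes had a level in green det2 after 8 h dark unlike that of both other det2 groups, and were picked for it after their values were seen. AT1G54740 read 406.1 and 395.1 in etiolated det2, 2937 and 2703 after 8 h dark and 595.2 and 592.9 in light-grown det2. AT5G57655 read 1117 and 1096, then 4388 and 4857, and 814.1 and 1053. AT1G50040 read 119.7 and 109.0, then 806.7 and 815.9, and 93.5 and 14.3. On the low side, AT4G36700 read 480.0 and 579.1 in etiolated det2, 5.3 and 7.0 after 8 h dark and 227.1 and 232.3 in light-grown det2. AT2G36145 read 189.0 and 297.4, then 20 and 20.4, and 540.5 and 538.4.

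The wild-type arrays give a comparison of light at 1 age on other arrays, though all comparisons draw on the same estimate of the spread for each probe set. Light for 2 h in dark-grown wild type changed 3526 probe sets (19.8%), raising 1790 and lowering 1736 (10.1% and 9.76%). Of those raised, 526 were higher in green det2 after 8 h dark, which is 29.4% of the light-raised list and 18.3% of the det2 list, where 16.2% of all probe sets were higher. Of those lowered, 373 were lower in green det2, 21.5% and 16.1% of the lists, where 13.0% of all were lower. In the opposite direction, 279 light-raised probe sets were lower in green det2 (15.6% and 12% of the lists), and 292 light-lowered ones were higher (16.8% and 10.1%), also at or above the shares of all probe sets. Same-numbered wild-type arrays deviated together, and with the replicate number of these arrays as a block light changed 4988 probe sets, raising 2230 and lowering 2758. In that fit 613 of the light-raised (27.5%) were higher in green det2 and 330 (14.8%) lower. Of the light-lowered, 527 (19.1%) were lower and 415 (15.0%) higher. That last share lies below the 16.2% of all probe sets that were higher. Across the 17787 probe sets the log2 differences correlated at r = 0.0696, a description over features that share arrays within each comparison. HPR is an example on the matching side (means of 1427.8 and 6704.1 in wild type without and with light), and LHCB4.3 on the opposing side (321.4 and 1137.8).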

How the data were processed

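Total RNA of Arabidopsis seedlings was hybridised to 1-colour arrays of 22810 probe sets. The authors deposited 1 table of linear intensity values, and MAS5 and limma are named, per the submitters' processing notes, with no version or build given in the sources used here. The trimmed mean (2% at each end) is 500 on every array, and rescaling every array to that target shifted no value by a share above 8.82e-05. Left out were 64 controls and 4959 probe sets with a mean under 50 over 14 arrays. The other 17787 were tested as log2(signal + 16), which understates changes of low genes. Limma 3.58.1 in R 4.3.3 fitted 1 mean per group to all 14 arrays (7 groups of 2) with a variance trend, and p-values are Benjamini-Hochberg adjusted over all probe sets, called at 0.05 whatever the fold. In simulated data of 17787 probe sets the 2 main groups differed only in 100 changes of log2 2 and 100 of log2 1. Of these, 98 and 48 were recovered, with 6 false calls. In the data 29.3% of probe sets passed, which makes the adjusted threshold less strict than in the simulation. The recovered shares are therefore not rates for the main comparison. The number of arrays, 2 per group, limits precision, and a p-value here reflects differences between arrays of a group that could be technical only.

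Gene names came from the platform annotation, which gives a single gene for 13513 of its 14016 probe sets and more than 1 gene for 503. A further 8730 probe sets, controls aside, have no name here. The reference (TAIR10.1, used for names only) held 13436 of the singly named probe sets, and 1551 have a symbol beyond the locus. For 146 genes with several probe sets the one with the highest mean was used. The comparison, its gene lists and the genes named were chosen with earlier results of these data known. Members were added to lists after the probe names had been read. Members whose symbol belongs to another protein were dropped from lists, 4 of them after their values were seen. The naming rule takes the 12 largest rises and falls that pass with groups that do not overlap among probe sets named for a single gene (unnamed probe sets hold larger changes than some of these), up to 4 passing members of each list by size (at most 2 where none passes), and all members of short lists and of 5 lists (light signalling, clock, chlorophyll synthesis, dark and sugar starvation, seed storage). Further members are named to complete a list's account, and others are marked as picked after their values were seen.

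Same-numbered det2 arrays did not deviate together (correlations between -0.033 and 0.016), so their replicate numbers were read as names. Those of the wild-type arrays did in every pair (0.226 to 0.429), so wild-type counts are also given with that block, an alternative chosen after seeing the data. Alternatives were the added constant (1 or 64), the filter (none, or a mean of 100), quantile normalization, fits to fewer arrays, a replicate block, no variance trend and each array left out in turn. No list was given a test of its own. Figures were drawn with matplotlib 3.10.9.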

Additional observations from a re-analysis of the deposited data

How the results depend on the processing

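Counts of passing probe sets are given for green det2 after 8 h dark against etiolated det2 (5203), light-grown against etiolated det2 (6614) and green after 8 h dark against light-grown det2 (2202). Leaving out 1 array at a time gave 2972 to 3631, 4394 to 4965 and 791 to 905. The first fell most without a green replicate (3015 and 2972), and the second without a light-grown replicate (4395 and 4394). The third rose to 4767 with the 6 det2 arrays alone and to 5557 with only the 4 arrays compared; the other settings kept each count within 1.5 times. Replicate numbers did not pair the det2 arrays, and a replicate block gave 5793, 7156 and 2581. For the wild-type arrays, which did pair, a block added after seeing the data gave 4988 against 3526 for 2 h of light. Of 176 named genes 148 passed and none reversed in any alternative run. Of these 148, 101 passed without each array in turn and 47 were lost without at least 1, none of them among the 24 largest rises and falls of singly named probe sets. Those 24 were chosen for size and for groups that do not overlap, so their staying called is no independent support. Fewer arrays in the fit (6 or 4) brought 16 and 15 further named genes past the threshold while losing 0 and 5, and no variance trend lost 13. Causes of these shifts were not tested. The number of arrays limits precision, and 17 passing genes have a group mean under 16, where only a bound on the fold is given.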
